A study of Mus musculus with 40 samples.

Results

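DNA replication and S phase genes are the genes whose products copy the genome: they license replication origins, activate and drive the replication fork, supply deoxynucleotides, rebuild and mark chromatin behind the fork, and start S phase. The members were taken from a list of symbols, each matched to the gene table through its Ensembl identifier in GENCODE M21, and all 49 listed genes were present among the 55487 genes of the table. They fell into 7 roles: 11 licensing genes, 8 genes of helicase activation, 9 of DNA polymerases and primase, 10 of the sliding clamp, single strand binding and strand maturation, 4 of nucleotide supply, 4 of replication-coupled chromatin and 3 G1/S regulators.

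RNA was sequenced from astrocyte-like glia, called ES-astrocytes, and from ES-motor neurons that had been differentiated from the same mouse embryonic stem cell line and grown in contact with each other. The line was made from B6.Cg-Tg(Hlxb9-GFP)1Tmj/J mice, in which the promoter of Hb9, a motor neuron homeobox gene, drives eGFP. The ES-astrocytes, brought to a brainstem and rostroventral spinal cord identity and matured with forskolin, were left as controls or exposed for 24 h to IL-1β+IL-6, TGF-β2, C1Q+C5 or IL-1α+TNF-α, after which sorted eGFP-positive motor neurons were laid over them. Fluorescence sorting on eGFP separated the cell types again, and about 200 cells went into each polyA cDNA library, with 4 biological replicates (A to D) for each of the 10 combinations of cell type and treatment, 40 libraries in all. The comparison of cell types asks how the replication genes differ between the glial layer and the neurons above it, and the comparison of treatments asks how their levels stood after each mediator.

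Before S phase, the origin recognition complex, Cdc6 and Cdt1 load the MCM helicase onto origins, and geminin (Gmnn) blocks loading once S phase has begun. Kinases and the GINS and Cdc45 proteins then turn the helicase on, and polymerases, the PCNA clamp and its loader copy both strands from deoxynucleotides that ribonucleotide reductase makes. Many of these genes are transcribed under E2F control as cells leave G1, while motor neurons leave the cell cycle when they are born and glial progenitors go on dividing for longer.

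Total counts ran from 1510823 to 16054290 in the 20 ES-astrocyte libraries, with a median of 4670241.5, and from 6557 to 19717324 in the 20 ES-motor neuron libraries, with a median of 1213482. 9 libraries held less than 20% of the median over all libraries (2459460.5) and are called shallow here, and all 9 were ES-motor neuron libraries. They were all 4 of IL-1α+TNF-α, with 117344, 445874, 300549 and 112775 counts in A to D, C1Q+C5 A (6557), IL-1β+IL-6 B (80315) and D (146775), TGF-β2 A (283205) and control C (240859). Between 10789 and 16659 genes were detected, with at least 1 count, in an ES-astrocyte library and between 2697 and 18259 in an ES-motor neuron library. The control and IL-1α+TNF-α libraries carried plate index 1 and the other stimuli plate index 2, so plate and stimulus cannot be told apart in 3 of the 4 stimulus comparisons with control. Levels are given as CPM, the counts of a gene over the total of its library in units of 1000000, after TMM scaling over all 40 libraries, intervals and floors cover counting error only because the reads carried no molecular identifiers, and in these sorted bulk samples fewer cells of a type and less RNA per cell cannot be told apart.

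The cell type labels were checked against marker lists. Of 12 motor neuron markers, all tested, 9 were higher and 1 was lower in ES-motor neurons, while Lhx3 and Tubb3 passed the test in neither direction. Their summed level ran from 3435 to 10456 CPM in ES-motor neurons (median 7515) and from 948 to 2342 CPM in ES-astrocytes (median 1572), and Stmn2 was the most abundant by its median in both cell types (2924 and 949.8 CPM). Mnx1, which encodes Hb9, had a median of 661 CPM in ES-motor neurons against 1.35 CPM in ES-astrocytes, where it was detected in 14 of 20 libraries. Of 12 astrocyte markers, 8 could be tested: 5 (Fabp7, Cd44, Slc1a3, Slc1a2 and Fgfr3) were lower in ES-motor neurons, Sox9 was higher there, and Vim and Nfia were not called. The astrocyte list summed to between 1220.2 and 4030.4 CPM in ES-astrocytes (median 2402.5) and between 67.4 and 1621 CPM in ES-motor neurons (median 969), with Fabp7 the most abundant in ES-astrocytes (median 1329.5 CPM). The defining mature markers Gfap and Aqp4 had 0 counts in every ES-astrocyte library, and Aldoc had a median of 0 in both cell types.

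Of 10 neural progenitor markers, 9 were tested and 7 were lower in ES-motor neurons, with summed levels of 239 to 1929 CPM in ES-astrocytes against 35.4 to 882 CPM in ES-motor neurons against Msi1 the most abundant in ES-astrocytes (median 581 CPM). Of 8 mesenchyme markers, 4 were tested and all 4 were lower in ES-motor neurons, with sums of 47.3 to 1130.3 CPM (median 199.9) against 0 to 5.90 CPM, Dcn the most abundant (median 138 CPM in ES-astrocytes) and Postn at 0 in every library. In the TGF-β2 group of ES-astrocytes the mesenchyme sum lay between 408 and 459 CPM. Oligodendrocyte lineage markers summed to at most 45.5 CPM in ES-astrocytes against 30.7 CPM in ES-motor neurons, with Mbp the most abundant by its median in ES-motor neurons and Sox10 at 0 in ES-astrocytes, and Mbp, among the 2 of 6 that could be tested, had a fitted log2 value of 1.84 and was not called. Microglia markers summed to at most 15.9 and 21.8 CPM, with Csf1r, the most abundant and the only 1 of 6 that could be tested, at a fitted value of 1.53 and not called, and Aif1, P2ry12 and C1qa at 0 everywhere. Pluripotent cell markers (0 of 6 tested) summed to at most 1.35 and 4.13 CPM, with Pou5f1, Zfp42 and Utf1 at 0 everywhere. The part of these other cell types in the results on replication genes was not tested.

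The replication genes were the more abundant in the ES-astrocytes. Between 35 and 49 of the 49 members were detected in an ES-astrocyte library (median 45.5) and between 6 and 45 in an ES-motor neuron library (median 31). Their summed level ran from 2540.0 to 6373 CPM in ES-astrocytes, with a median of 3177, and from 404 to 1039.8 CPM in ES-motor neurons, with a median of 858, so every ES-astrocyte library lay above every ES-motor neuron library. The ratio of the medians was 3.70, and 3.20 with Rrm2 left out of the sum. By role, the ratio of the medians was 11.9 for nucleotide supply, 4.79 for G1/S regulators, 4.74 for polymerases and primase, 3.52 for licensing, 2.96 for the clamp and maturation genes, 2.61 for helicase activation and 2.03 for chromatin genes. The members' median was lower in ES-motor neurons for 48 of 49 genes, Orc1 being the exception, and 30 members had no ES-motor neuron library above the ES-astrocyte median. The shares of all tested genes with these properties were not counted, so these counts describe the members only.

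**Figure D1:**
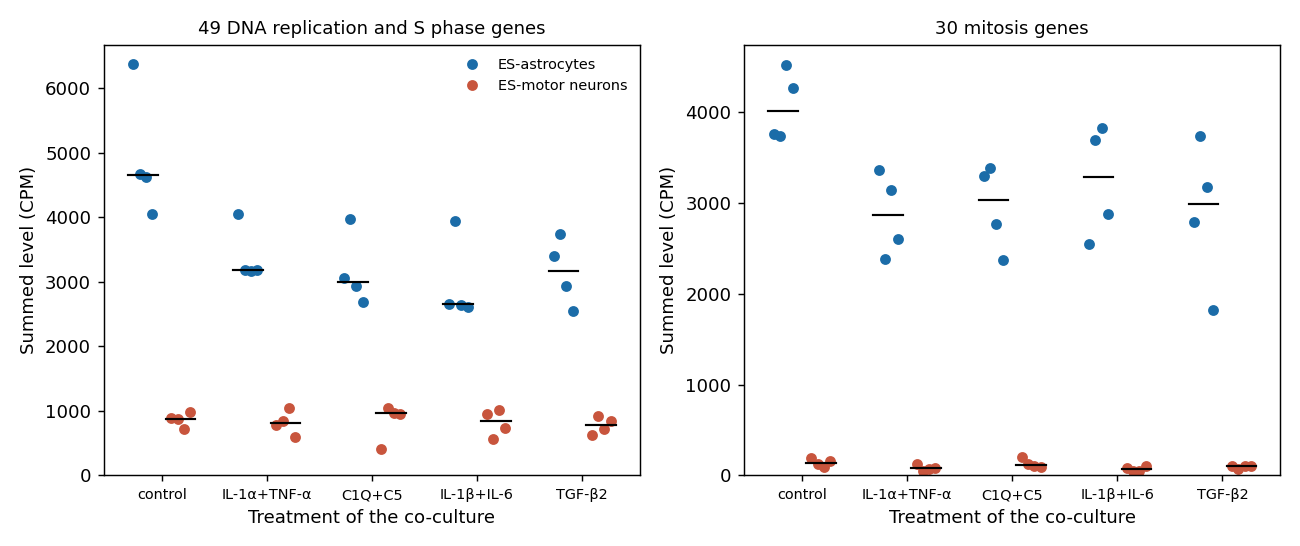
Summed CPM of the 49 replication genes (left) and of 30 mitosis genes (right) in each library, by cell type and treatment, with a bar at each group's median. The 4 ES-astrocyte controls lie between 4049 and 6373 CPM of replication genes and the 16 stimulated libraries between 2540.0 and 4048 CPM, below every control with TMM scaling, while 14 of the 16 are below with RLE scaling and 11 with total counts alone.

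Per kilobase of exon, the mean level over the ES-astrocyte libraries was highest for Rrm2 (248.7 CPM per kb), Rfc4 (185), Pcna (102), Gins1 (65.4), Orc6 (59.7), Gmnn (52.1) and Gins4 (46.9), and lowest for Pole (0.806). In ES-motor neurons the order began with Orc6 (48.3 CPM per kb), Rfc4 (48.1), Pcna (33.8), Gins1 (28.5) and Gins4 (23.8), and Rrm2 took place 12. Rrm2 was the most abundant member by CPM in 19 of the 20 ES-astrocyte libraries, with 13.6 to 25.9% of the members' sum, and Rfc4 was the most abundant in the other, IL-1β+IL-6 C.

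Over all treatments, the replication genes were lower in ES-motor neurons than in ES-astrocytes. 35 of the 49 members fell and 0 rose (edgeR quasi-likelihood; a gene was called when its Benjamini-Hochberg adjusted p did not exceed 0.05 and its log2 fold change was beyond 1 in either direction), against 11% of 13227 tested genes that were lower and 3.86% that were higher. At an unadjusted p under 0.05 there were 42 members, all of them lower, against 28.4% of all tested genes, and DESeq2 called 35 members, the same genes. The fitted value was negative for all 49 members, with a median log2 fold change of -2.39 and a range from -8.05 to -0.08, where the median over all tested genes was -0.21. The lowest value, of Cdc6, rests on 1 count in ES-motor neurons, and the value of Orc1 turned positive with DESeq2 (0.07), with the replicate letter as a block and without the shallow libraries, the other 48 staying negative in each. Every ES-astrocyte library lay above every ES-motor neuron library for 2 of the 49 members, Rrm2 and Uhrf1, against 0.658% of the tested genes. Without the 9 shallow libraries this again held for 2 members, against 0.817%, and 30 of the 35 members were called, Pola1, Pold1, Fen1, Rpa1 and Rfc5 losing their call.

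All 30 mitosis genes fell as well, with a median log2 fold change of -6.42, among them the survivin gene Birc5 (-7.47), topoisomerase gene Top2a (-6.94) and cyclin B1 gene Ccnb1 (-7.42). Their summed level had a median of 3238 CPM in ES-astrocytes against 99.3 CPM in ES-motor neurons. Of 45 other replication genes outside the module, 22 fell (median log2 fold change -1.47), with Pclaf at -6.39, Esco2 at -7.80 and the S phase cyclin gene Ccna2 at -2.25. Mcmbp, an MCM binding protein gene, had a median of 1212 CPM in ES-astrocytes against 1714 CPM in ES-motor neurons (edgeR quasi-likelihood, Benjamini-Hochberg adjusted p = 0.0866). Of 14 genes of cell cycle exit and G1, 7 fell (median -2.08), with the D cyclin genes Ccnd2 at -7.08 and Ccnd1 at -5.73 and the kinase gene Cdk6 at -5.84, while the inhibitor gene Cdkn1b had a fitted value of -0.12.

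**Figure D2:**
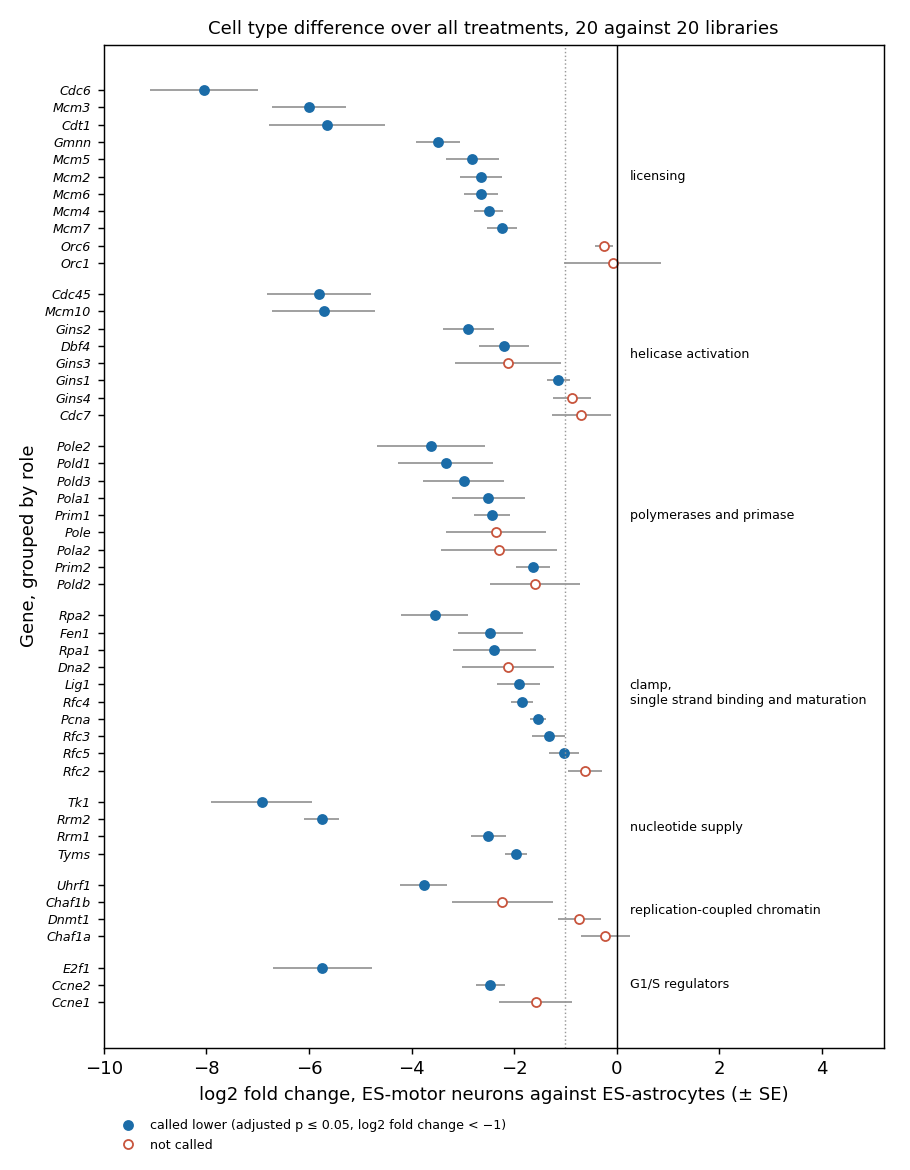
Fitted log2 fold change of each member, ES-motor neurons against ES-astrocytes over all treatments (20 libraries of each), grouped by role, with the standard error; filled points passed the edgeR test. All 49 fitted values are below 0 and run from -8.05 to -0.08, and 35 are filled, with TMM and with RLE size factors alike.

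Licensing genes: 9 of 11 fell, with a median log2 fold change of -2.65. Mcm4, a subunit of the MCM helicase (ENSMUSG00000022673, GRCm38 chr16:15623897-15637400, minus strand), had a lowest, median and highest level of 29.6, 150.4 and 239.5 CPM in ES-astrocytes against 0, 18.4 and 57.3 CPM in ES-motor neurons. 19 of 20 ES-astrocyte libraries were above the highest ES-motor neuron library, and control A (29.6 CPM) was the exception. The difference was -2.50 ± 0.28 (SE, 20 libraries of each cell type; edgeR quasi-likelihood, Benjamini-Hochberg adjusted p = 1.22e-09). The other helicase subunit genes fell with fitted log2 values of -6.00 for Mcm3, -2.82 for Mcm5, -2.65 for both Mcm2 and Mcm6 and -2.24 for Mcm7. Mcm3 was detected in all 20 ES-astrocyte libraries and in 4 ES-motor neuron libraries.

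The helicase loader gene Cdc6 had 1845 counts over 17 ES-astrocyte libraries and 1 count in ES-motor neurons, in IL-1β+IL-6 D. The scaled levels stood in a ratio of 1021, with a 95% counting interval from 183 to 40309, and without that library Cdc6 was at least 339-fold lower against a floor of 3 counts over the group. Cdt1, which works with Cdc6 in loading, had 1285 counts over 17 ES-astrocyte libraries and 89 counts over 2 ES-motor neuron libraries, and fell by 5.65 on the log2 scale. Gmnn, the gene of the Cdt1 inhibitor geminin, fell by 3.48. Orc6, a subunit of the origin recognition complex (ENSMUSG00000031697, GRCm38 chr8:85299632-85308278, plus strand), had 67.5, 138 and 257 CPM in ES-astrocytes against 0, 136 and 174 CPM in ES-motor neurons as lowest, median and highest level. The groups overlapped over most of their range, with 7 ES-astrocyte libraries above the highest ES-motor neuron library, and Orc6 was not called (-0.25 ± 0.18, SE, 20 libraries of each cell type; edgeR quasi-likelihood, Benjamini-Hochberg adjusted p = 0.411). Orc1, the other subunit gene of that complex in the module, was not called either (-0.08, edgeR quasi-likelihood, Benjamini-Hochberg adjusted p = 0.977), with medians of 1.67 CPM in ES-astrocytes against 1.76 CPM in ES-motor neurons.

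Helicase activation genes: 5 of 8 fell, with a median log2 fold change of -2.16. Gins2, a GINS subunit (ENSMUSG00000031821, GRCm38 chr8:120578633-120589304, minus strand), had 20.2, 63.8 and 124.9 CPM in ES-astrocytes against 0, 3.90 and 26.6 CPM in ES-motor neurons as lowest, median and highest level. 18 of the ES-astrocyte libraries were above the highest ES-motor neuron library, control B, and 9 ES-motor neuron libraries had 0 counts. Gins2 fell by 2.89 on the log2 scale (SE 0.49, 20 libraries of each cell type; edgeR quasi-likelihood, Benjamini-Hochberg adjusted p = 1.15e-05). Gins1, a further GINS subunit (ENSMUSG00000027454, GRCm38 chr2:150905400-150931280, plus strand), had 55.0, 86.6 and 179 CPM in ES-astrocytes against 0, 41.7 and 96.5 CPM in ES-motor neurons. The groups overlapped, with 8 ES-astrocyte libraries above the highest ES-motor neuron library, C1Q+C5 D. Gins1 fell by 1.14 (SE 0.23, 20 libraries of each cell type; edgeR quasi-likelihood, Benjamini-Hochberg adjusted p = 0.00013), and in the libraries of plate index 2 alone, a split chosen after seeing the data, the value was -0.97 and short of the fold threshold.

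Cdc45, the helicase cofactor, was detected in 15 ES-astrocyte and 3 ES-motor neuron libraries and fell by 5.80, and the activation factor gene Mcm10 was detected in 18 and 2 and fell by 5.71. Gins4 had 0.461, 60.9 and 146 CPM in ES-astrocytes against 0, 29.8 and 91.1 CPM in ES-motor neurons as lowest, median and highest level, and its groups overlapped from C1Q+C5 D, the lowest ES-astrocyte library, to 91.1 CPM. Its difference of -0.87 ± 0.37 (SE) was not called (edgeR quasi-likelihood, Benjamini-Hochberg adjusted p = 0.0984), while without ES-motor neuron C1Q+C5 C it was -1.02 and called. Gins3 was detected in 13 ES-astrocyte and 6 ES-motor neuron libraries, with levels up to 43.2 and 15.4 CPM and medians of 2.93 and 0 CPM. 4 ES-astrocyte libraries were above the highest ES-motor neuron library, the shallow control C, and without the shallow libraries the highest ES-motor neuron level was 4.62 CPM. The difference of -2.12 ± 1.03 (SE) was not called (edgeR quasi-likelihood, Benjamini-Hochberg adjusted p = 0.165). Cdc7, a kinase gene of helicase activation, had a fitted value of -0.69 and was not called, while its activating partner gene Dbf4 fell, with medians of 32.2 CPM in ES-astrocytes against 6.16 CPM in ES-motor neurons.

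DNA polymerase and primase genes: 6 of 9 fell, with a median log2 fold change of -2.44. Prim1, the catalytic primase subunit that makes RNA primers (ENSMUSG00000025395, GRCm38 chr10:128015168-128030037, plus strand), had 10.6, 91.4 and 163 CPM in ES-astrocytes against 0, 9.66 and 46.7 CPM in ES-motor neurons as lowest, median and highest level. 14 ES-astrocyte libraries were above the highest ES-motor neuron library, the shallow IL-1β+IL-6 D, and C1Q+C5 D was the lowest ES-astrocyte library. Prim1 fell by 2.44 on the log2 scale (SE 0.35, 20 libraries of each cell type; edgeR quasi-likelihood, Benjamini-Hochberg adjusted p = 4.79e-07). Falls were fitted at -3.62 for Pole2, -3.34 for the polymerase delta catalytic gene Pold1, -2.98 for Pold3, -2.50 for the polymerase alpha catalytic gene Pola1 and -1.64 for Prim2, of which Pold1 (-3.14) and Pola1 (-1.76) were not called without the shallow libraries. Pole, the catalytic gene of polymerase epsilon, had 0, 4.78 and 25.8 CPM in ES-astrocytes against 0, 0 and 8.73 CPM in ES-motor neurons as lowest, median and highest level. 8 ES-astrocyte libraries were above the highest ES-motor neuron library, and Pole was not called (-2.35 ± 0.98, SE; edgeR quasi-likelihood, Benjamini-Hochberg adjusted p = 0.0913). Pola2, an accessory subunit of polymerase alpha, had medians of 3.77 and 0 CPM and highest levels of 44.5 and 24.8 CPM in ES-astrocytes against ES-motor neurons, and it was not called (-2.30 ± 1.14, SE; edgeR quasi-likelihood, Benjamini-Hochberg adjusted p = 0.174). Pold2, the remaining polymerase member, had a fitted value of -1.59 and was not called. Without ES-motor neuron IL-1β+IL-6 A, Pole (-3.05), Pola2 (-3.17) and Pold2 (-2.43) were called, and Pold2 was called with the replicate letter as a block (-2.35).

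Clamp, single strand binding and maturation genes: 8 of 10 fell, with a median log2 fold change of -1.88. Pcna, the sliding clamp (ENSMUSG00000027342, GRCm38 chr2:132249162-132253314, minus strand), had 122, 244 and 403 CPM in ES-astrocytes against 22.6, 79.6 and 134 CPM in ES-motor neurons as lowest, median and highest level. 19 ES-astrocyte libraries were above the highest ES-motor neuron library, and TGF-β2 D (122 CPM) was the exception. Pcna fell by 1.54 on the log2 scale (SE 0.16, 20 libraries of each cell type; edgeR quasi-likelihood, Benjamini-Hochberg adjusted p = 1.48e-10). Rfc4, a subunit of the clamp loader (ENSMUSG00000022881, GRCm38 chr16:23113943-23127737, minus strand), had 81.1, 257 and 535 CPM in ES-astrocytes against 26.0, 69.2 and 144 CPM in ES-motor neurons. 18 ES-astrocyte libraries were above the highest ES-motor neuron library, C1Q+C5 C, and the remaining ES-astrocyte libraries were C1Q+C5 D and IL-1β+IL-6 A. Rfc4 fell by 1.85 (SE 0.22, 20 libraries of each cell type; edgeR quasi-likelihood, Benjamini-Hochberg adjusted p = 2.32e-09). The other loader subunit genes Rfc3 and Rfc5 fell by 1.33 and 1.03, the single strand binding genes Rpa2 and Rpa1 by 3.55 and 2.39, the flap endonuclease gene Fen1 by 2.47 and the ligase gene Lig1 by 1.91. Rfc2, a loader subunit, had 1.81, 77.9 and 172 CPM in ES-astrocytes against 0, 52.3 and 94.7 CPM in ES-motor neurons, with overlapping groups, and was not called (-0.62 ± 0.33, SE; edgeR quasi-likelihood, Benjamini-Hochberg adjusted p = 0.219). Dna2, a nuclease and helicase of strand maturation, had medians of 8.56 and 0 CPM and highest levels of 32.0 and 12.4 CPM in ES-astrocytes against ES-motor neurons, and was not called (-2.12 ± 0.89, SE; edgeR quasi-likelihood, Benjamini-Hochberg adjusted p = 0.0941), while with the replicate letter as a block its value was -2.55 and it was called. Rpa1 lost its call without ES-astrocyte control A (-1.94), IL-1β+IL-6 B (-2.23) or TGF-β2 A (-2.18) or ES-motor neuron C1Q+C5 D (-2.16), with the replicate letter as a block (-2.21) and without the shallow libraries (-2.92). Fen1 (-2.12) and Rfc5 (-0.73) were not called without the shallow libraries either. Rfc5 lay at the fold threshold and lost its call, with values between the threshold and -0.91, when any of 15 libraries was left out: ES-astrocyte controls A, C and D, IL-1α+TNF-α D, C1Q+C5 D and TGF-β2 A and D, and ES-motor neuron controls A and C, IL-1α+TNF-α D, C1Q+C5 D, IL-1β+IL-6 B and D and TGF-β2 B and C.

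Nucleotide supply genes: all 4 fell, with a median log2 fold change of -4.13. Rrm2, the small subunit of ribonucleotide reductase (ENSMUSG00000020649, GRCm38 chr12:24708241-24714146, plus strand), had 231, 597 and 1648 CPM in ES-astrocytes against 0, 10.9 and 56.0 CPM in ES-motor neurons as lowest, median and highest level. All 20 ES-astrocyte libraries were above all 20 ES-motor neuron libraries, and control A was the highest library in both cell types. Rrm2 fell by 5.75 on the log2 scale (SE 0.34, 20 libraries of each cell type; edgeR quasi-likelihood, Benjamini-Hochberg adjusted p = 1.45e-18). Rrm1, the large subunit of the same enzyme (ENSMUSG00000030978, GRCm38 chr7:102441695-102469771, plus strand), had 11.5, 143 and 224 CPM in ES-astrocytes against 0, 17.4 and 53.9 CPM in ES-motor neurons. Its 18 highest ES-astrocyte libraries were above every ES-motor neuron library, and it fell by 2.50 (SE 0.34; edgeR quasi-likelihood, Benjamini-Hochberg adjusted p = 7.32e-08). Tyms, thymidylate synthase (ENSMUSG00000025747, GRCm38 chr5:30058202-30073617, minus strand), had 18.4, 148 and 287 CPM in ES-astrocytes against 15.4, 38.3 and 72.9 CPM in ES-motor neurons. 19 ES-astrocyte libraries were above the highest ES-motor neuron library, C1Q+C5 D being the exception, and Tyms fell by 1.96 (SE 0.22; edgeR quasi-likelihood, Benjamini-Hochberg adjusted p = 8.99e-10). The thymidine kinase gene Tk1 had 3220 counts over 17 ES-astrocyte libraries and 42 counts in 1 ES-motor neuron library, IL-1β+IL-6 A (2.66 CPM), and fell by 6.92.

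Replication-coupled chromatin genes: 1 of 4 fell, with a median log2 fold change of -1.48. Uhrf1, which binds hemimethylated DNA behind the fork (ENSMUSG00000001228, GRCm38 chr17:56303321-56323486, plus strand), had 11.4, 34.8 and 80.1 CPM in ES-astrocytes against 0, 0 and 8.13 CPM in ES-motor neurons as lowest, median and highest level. All 20 ES-astrocyte libraries were above all 20 ES-motor neuron libraries, of which 12 had 0 counts. Uhrf1 fell by 3.76 on the log2 scale (SE 0.46, 20 libraries of each cell type; edgeR quasi-likelihood, Benjamini-Hochberg adjusted p = 9.35e-09). Its partner Dnmt1, the maintenance DNA methyltransferase gene, had medians of 29.6 CPM in ES-astrocytes against 20.7 CPM in ES-motor neurons against was not called (-0.73; edgeR quasi-likelihood, Benjamini-Hochberg adjusted p = 0.264). Of the chromatin assembly factor genes, Chaf1a had medians of 26.0 and 19.3 CPM and a fitted value of -0.22, and it was not called. Chaf1b had 0, 1.86 and 170.1 CPM in ES-astrocytes against 0, 0 and 61.5 CPM in ES-motor neurons as lowest, median and highest level, with control A alone above every ES-motor neuron library, and it was not called (-2.23 ± 0.99, SE; edgeR quasi-likelihood, Benjamini-Hochberg adjusted p = 0.116). The highest ES-motor neuron library for Chaf1b was the shallow control C, and without the shallow libraries the highest level was 13.2 CPM. Without ES-motor neuron IL-1β+IL-6 A the value of Chaf1b was -3.24 and it was called.

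G1/S regulators: 2 of 3 fell, with a median log2 fold change of -2.47. Ccne2, a cyclin that activates Cdk2 at S phase entry (ENSMUSG00000028212, GRCm38 chr4:11191351-11204779, plus strand), had 21.5, 119 and 351 CPM in ES-astrocytes against 0, 19.8 and 77.9 CPM in ES-motor neurons as lowest, median and highest level. 15 ES-astrocyte libraries were above the highest ES-motor neuron library, the shallow IL-1α+TNF-α D. Ccne2 fell by 2.47 on the log2 scale (SE 0.29, 20 libraries of each cell type; edgeR quasi-likelihood, Benjamini-Hochberg adjusted p = 1.98e-09). The transcription factor gene E2f1 had 1559 counts over 17 ES-astrocyte libraries and 19 counts over 3 ES-motor neuron libraries and fell by 5.74. Ccne1, the other cyclin E gene, had 0, 25.3 and 76.4 CPM in ES-astrocytes against 0, 6.44 and 67.4 CPM in ES-motor neurons, the highest in C1Q+C5 A, the library of 6557 counts. Its groups overlapped, and it was not called (-1.58 ± 0.71, SE; edgeR quasi-likelihood, Benjamini-Hochberg adjusted p = 0.124).

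The index primers of the libraries differed between the cell types, so primer and cell type cannot be told apart, and the 9 shallow libraries lay on the ES-motor neuron side only. In the libraries of plate index 1 alone 27 members were called and in those of plate index 2 alone 26, all of them among the 35, a split chosen after seeing the data. Pold1, Pole2, Rfc5 and Rpa1 were called in neither, Prim2, Dbf4, Rfc3 and Lig1 not with plate index 1, and Cdt1, Gins1, Pola1, Pold3 and Fen1 not with plate index 2.

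Several members share bases with another gene, and the strand of counting was not given in the sources used here, so reads from such stretches could have been given to either gene or to neither. Rfc4 overlaps Eif4a2 on the opposite strand (40066 and 33760 counts over all libraries), Orc6 overlaps Vps35 (24157 and 33698), and Ccne2 overlaps Ints8 (18745 and 10817). Gins2 overlaps Gse1 and Gm20388, Tk1 overlaps Afmid and Gm20708, Cdc45 overlaps Ufd1, Mcm7 overlaps Cops6 and Ap4m1, and Fen1 overlaps Tmem258 and Gm10143, each on the opposite strand. Rfc2 overlaps Lat2, Rfc5 overlaps Wsb2, Lig1 overlaps Zswim9, Chaf1a overlaps Ubxn6, Orc1 overlaps Gm12743 and Pole overlaps Gm15792, again on the opposite strand. On the same strand, Cdt1 overlaps Gm20388, Pole2 overlaps Gm49384, and Mcm7 hosts Mir25, Mir93 and Mir106b, and the overlaps of the remaining members were with genes of at most 12 counts over all libraries.

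In the control co-cultures alone, with 4 libraries of each cell type, the direction was the same and fewer members passed the test. 12 of 46 tested members fell and 0 rose, against 1.67% of 10199 tested genes that were lower and 0.569% that were higher, and 34, all of them lower, had an unadjusted p under 0.05, against 10.6%. The median log2 fold change was -2.66, also with the genes at 0 set to their bound, where the median over all tested genes was -0.20. The 12 were Rfc4, Rrm2, Cdc45, Mcm3, Uhrf1, Pcna, Tyms, Rpa2, Cdc6, Tk1, Pold3 and Gmnn. Of the other lists, 5 of 37 tested replication genes outside the module, 22 of 28 mitosis genes and 5 of 12 genes of cell cycle exit and G1 fell.

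Rrm2 had 1648, 1180.3, 652 and 726 CPM in ES-astrocyte controls A to D and 56.0, 12.7, 0 and 8.10 CPM in ES-motor neuron controls A to D. The groups did not overlap, and Rrm2 fell by 5.72 on the log2 scale (SE 0.88, n = 4 and 4; edgeR quasi-likelihood, Benjamini-Hochberg adjusted p = 0.0082). Rfc4 had 517, 326, 535 and 491 CPM in the ES-astrocyte controls and 63.3, 81.0, 42.3 and 45.8 CPM in the ES-motor neuron controls. Every ES-astrocyte value was above every ES-motor neuron value, and Rfc4 fell by 2.98 (SE 0.39, n = 4 and 4; edgeR quasi-likelihood, Benjamini-Hochberg adjusted p = 0.00318). Uhrf1 had 71.9, 67.1, 80.1 and 67.4 CPM against 8.13, 4.74, 0 and 6.67 CPM, again without overlap, and fell by 3.71 (SE 0.70, n = 4 and 4; edgeR quasi-likelihood, Benjamini-Hochberg adjusted p = 0.0184). Pcna had 248, 403, 350.4 and 285 CPM against 80.4, 84.8, 104 and 89.1 CPM, and Tyms 287, 264, 252 and 188 CPM against 15.4, 40.4, 26.9 and 72.0 CPM. For Pcna and Tyms too the groups were separate, and they fell by 1.82 and 2.62. Orc6 had 110.1, 217, 257 and 85.5 CPM in the ES-astrocyte controls and 118, 122, 127 and 152 CPM in the ES-motor neuron controls, which lay inside the ES-astrocyte range.

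Some members had no counts in the ES-motor neuron controls. Taken against a floor of 3 counts over the group, Tk1 (939 counts in ES-astrocyte controls) was at least 248-fold lower, Cdc6 (541 counts) at least 143-fold lower, Mcm10 (451 counts) at least 119-fold lower and Cdt1 (392 counts, too few libraries to be tested) at least 104-fold lower. These bounds rest largely on ES-motor neuron control B, which held 83.5% of the counts of that group, and without it they were 37.3-fold, 21.5-fold, 17.9-fold and 15.6-fold, while for Mcm10 the bound without ES-astrocyte control A was 71.1-fold. Cdc45 had 1196 counts against 1, a ratio of 949 with a 95% counting interval from 170.4 to 37490.5, and that count lay in control B, without which Cdc45 was at least 47.5-fold lower. The count of 12 moved with single libraries: it was 3 without ES-motor neuron control A or B and 4 without C or D, and 6, 6 and 7 without ES-astrocyte control B, C or D. DESeq2 called 28 members, a fit of all 40 libraries 20, a fit with the replicate letter as a block 2, and 4 were called without the shallow control C. Rfc4 and Rrm2 kept their call with the block, without the shallow library and in all 8 fits that left out a library. Uhrf1 kept its call without the shallow library and lost it with the block and in 6 of the 8 fits, those without ES-astrocyte control B, C or D or ES-motor neuron control A, B or D. Tyms and Pcna lost theirs with the block and without the shallow library. Leaving out ES-astrocyte control B or C or ES-motor neuron control A, B or C ended the call of both, and leaving out ES-astrocyte or ES-motor neuron control D ended that of Pcna as well. Pcna was also not called with no filter on low counts. Of the other 7 members called in the controls, none was called with the block, and Cdc45 alone was called without the shallow library.

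Among the ES-astrocytes, the summed level of replication genes with TMM scaling was lower in each stimulated group than in the controls, and no member passed the test in any comparison with control. The sums in controls A to D were 6373, 4666, 4626 and 4049 CPM. They were 4048, 3175, 3165 and 3179.6 CPM after IL-1α+TNF-α, 3065, 3973, 2933 and 2686 CPM after C1Q+C5, 2651, 3948, 2646 and 2608 CPM after IL-1β+IL-6, and 3400.2, 3743, 2940.4 and 2540.0 CPM after TGF-β2. With TMM scaling all 16 stimulated libraries were below every control, while with RLE scaling 14 and with total counts alone 11 of 16 were, scalings compared after seeing the data. Control had the highest group mean for 34 of the 49 members and the lowest for 0, and IL-1β+IL-6 had the lowest for 26, TGF-β2 for 10, C1Q+C5 for 9 and IL-1α+TNF-α for 4. These means used TMM scaling, and the same order was not counted over all tested genes. Control A was the highest of the 20 libraries for 16 members. Among the 27 members detected in all 20 libraries, C1Q+C5 D was the lowest for 7. IL-1β+IL-6 A was the lowest for Mcm5, Mcm7, Dbf4 and Rfc2. For members not detected in every library, the lowest level was 0 and could be shared by several libraries. The highest stimulated replication sum (4048 CPM, TMM) lay just below the lowest control (4049 CPM). The mitosis sums of the stimulated libraries (1821 to 3821 CPM) overlapped those of the controls (3742 to 4521 CPM) only between 3742 and 3821 CPM. A lower stimulated sum was thus not particular to the replication genes.

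The 4 comparisons share the same 4 control libraries and are set side by side in the order IL-1α+TNF-α, C1Q+C5, IL-1β+IL-6, then TGF-β2. With edgeR, 0 of 49, 49, 48 and 48 tested members were called, against 0%, 0%, 0% and 0% of all tested genes, and 2, 3, 2 and 4 members had an unadjusted p under 0.05, all of them lower, against 0.890%, 0.976%, 1.16% and 1.26% of all tested genes. Those members were Uhrf1 and Rfc4 after IL-1α+TNF-α, Rfc4, Uhrf1 and Gins1 after C1Q+C5, Rrm1 and Tyms after IL-1β+IL-6, and Rfc4, Tyms, Uhrf1 and Rrm2 after TGF-β2. DESeq2 also called 0 members in each, where it called 21, 37, 56 and 58 of all genes. The fitted value was negative for 41, 42, 43 and 39 members, against 55.9%, 53.8%, 54.5% and 54.2% of all tested genes. The members' median log2 fold change was -0.51, -0.59, -0.84 and -0.46, where the median over all tested genes was -0.08, -0.07, -0.07 and -0.06. A test for any difference among the 5 treatments called 0 of 49 members, against 0% of 13195 tested genes, with 1 member, Rfc4, at an unadjusted p under 0.05, against 2.61%, and 0 with DESeq2.

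Every control library was above every stimulated library for 1 member after IL-1α+TNF-α (Uhrf1), against 0.948% of the tested genes, and for 3 after C1Q+C5 (Rfc4, Tyms and Uhrf1), against 0.994%. It was so for 3 after IL-1β+IL-6 (Pold3, Pcna and Uhrf1), against 0.957%, and for 3 after TGF-β2 (Rfc4, Tyms and Uhrf1), against 0.973%. For Uhrf1 alone among the 49, the 4 controls were above all 16 stimulated libraries, which held for 2 of 13195 tested genes (0.0152%).

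Uhrf1 had 71.9, 67.1, 80.1 and 67.4 CPM in ES-astrocyte controls A to D. It had 29.1, 25.7, 46.3 and 13.5 CPM after IL-1α+TNF-α, 11.4, 33.0, 27.2 and 34.4 CPM after C1Q+C5, 36.7, 42.1, 34.3 and 34.3 CPM after IL-1β+IL-6, and 35.1, 36.6, 39.3 and 15.6 CPM after TGF-β2. The highest stimulated library, IL-1α+TNF-α C, lay below the lowest control, B, and this order of all 16 held with RLE scaling and with total counts alone. The fitted log2 values were -1.28 ± 0.49, -1.38 ± 0.55, -0.94 ± 0.43 and -1.13 ± 0.48 (SE, n = 4 and 4), each with an edgeR quasi-likelihood, Benjamini-Hochberg adjusted p of 1.00. After IL-1β+IL-6, DESeq2 gave Uhrf1 an adjusted p of 0.0209 with a log2 fold change of -0.95, short of the fold threshold.

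Rfc4 had 517, 326, 535 and 491 CPM in the controls. It had 327, 191, 252 and 331 CPM after IL-1α+TNF-α, 235, 249, 261 and 81.1 CPM after C1Q+C5, 139.6, 376, 254 and 319 CPM after IL-1β+IL-6, and 204, 275, 165 and 156 CPM after TGF-β2. 13 of the 16 stimulated libraries were below every control (12 with RLE scaling, 10 with total counts alone), the others being IL-1α+TNF-α A and D and IL-1β+IL-6 B, and C1Q+C5 D stood below the rest of its group. The fitted log2 values were -0.73 ± 0.31, -1.15 ± 0.42, -0.76 ± 0.38 and -1.17 ± 0.33 (SE, n = 4 and 4), none of them called. Tyms had 287, 264, 252 and 188 CPM in the controls. It had 172, 109.7, 198 and 133 CPM after IL-1α+TNF-α, 177, 157, 138 and 18.4 CPM after C1Q+C5, 163, 116, 98.9 and 194 CPM after IL-1β+IL-6, and 129.7, 139.8, 122 and 139 CPM after TGF-β2. 14 of the 16 were below every control (13 with RLE scaling and 13 with total counts alone), and C1Q+C5 D was again the lowest. For Tyms the fits gave -0.66 ± 0.31, -0.99 ± 0.56, -0.78 ± 0.34 and -0.85 ± 0.30 (SE, n = 4 and 4), none of them called.

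Gins1 had 81.1, 179, 164 and 123 CPM in the controls. It had 85.0, 55.4, 85.3 and 92.1 CPM after IL-1α+TNF-α, 75.3, 55.2, 55.0 and 87.9 CPM after C1Q+C5, 70.9, 106, 151 and 134 CPM after IL-1β+IL-6, and 63.6, 143, 116 and 59.0 CPM after TGF-β2. Control A lay among the stimulated libraries, 7 of which were below every control, and the fits gave -0.74 ± 0.37, -0.96 ± 0.42, -0.23 ± 0.39 and -0.47 ± 0.43 (SE, n = 4 and 4), none of them called. Rrm1 had 217, 203, 154 and 62.4 CPM in the controls. It had 122, 153, 81.2 and 67.6 CPM after IL-1α+TNF-α, 190.3, 224, 11.5 and 144 CPM after C1Q+C5, 50.5, 104, 62.4 and 71.0 CPM after IL-1β+IL-6, and 224, 213, 168 and 143 CPM after TGF-β2. Control D was low and C1Q+C5 C lower still, the groups overlapped in each comparison, and the fits gave -0.55 ± 0.45, -0.12 ± 0.70, -1.12 ± 0.46 and 0.29 ± 0.41 (SE, n = 4 and 4), none of them called.

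Rrm2, the most abundant member, had 1648, 1180.3, 652 and 726 CPM in the controls. It had 879, 529, 430.3 and 578 CPM after IL-1α+TNF-α, 533, 819, 719.7 and 520.4 CPM after C1Q+C5, 599, 956, 231 and 565 CPM after IL-1β+IL-6, and 696, 594, 452 and 476 CPM after TGF-β2. Controls A and B were above all 16 stimulated libraries and controls C and D lay among them. Pcna had 248, 403, 350.4 and 285 CPM in the controls, and after IL-1β+IL-6, where the groups did not overlap, 203, 234, 197 and 177 CPM. Pold3, a polymerase delta subunit gene, had 104, 37.7, 16.8 and 67.9 CPM in the controls and, after IL-1β+IL-6, 0 CPM in A and D and at most 12.3 CPM in B and C, with a fitted value of -3.18 ± 1.46 (SE, n = 4 and 4) that was not called.

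**Figure D3:**
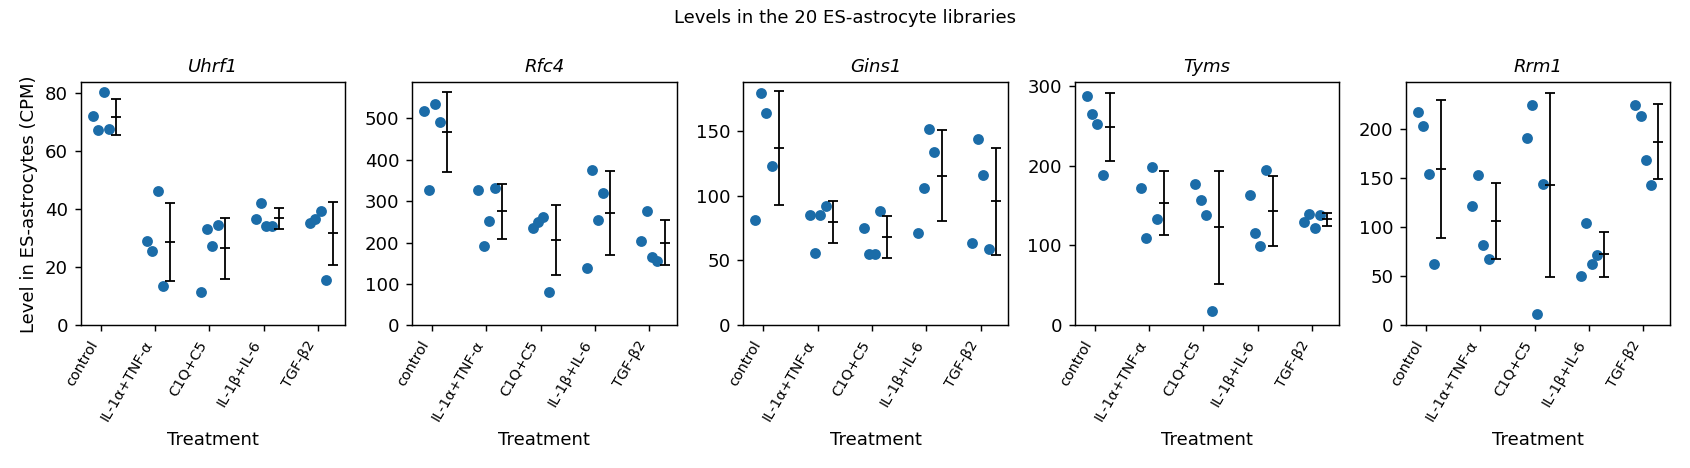
CPM of Uhrf1, Rfc4, Gins1, Tyms and Rrm1 in each ES-astrocyte library by treatment (4 libraries a group), with the mean and SD of each group. The Uhrf1 controls (67.1 to 80.1 CPM) lie above all 16 stimulated libraries (11.4 to 46.3 CPM) with TMM, RLE and total-count scaling alike, while the groups of Gins1 and Rrm1 overlap.

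By role, the median fitted log2 value in the same order was -0.44, -0.23, -0.63 and -0.90 for licensing genes, -0.53, -0.83, -0.59 and -0.46 for helicase activation, and -0.08, -0.74, -1.76 and -0.45 for polymerases and primase. It was -0.56, -0.65, -0.89 and -0.38 for the clamp and maturation genes, whose 10 members all had negative values in the first 3 comparisons and 9 of 10 after TGF-β2. It was -0.60, -0.39, -0.96 and -0.45 for nucleotide supply, -0.88, -0.66, -0.87 and -0.95 for chromatin genes, and -0.54, -0.79, -0.66 and -0.90 for G1/S regulators. All 11 licensing genes had negative values after TGF-β2.

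In the ES-motor neurons, which met ES-astrocytes that had already been stimulated, no member passed the test. In the same order of treatments 12, 23, 26 and 24 members had enough counts to be tested, and edgeR called 0 of them in each, against 0%, 0%, 0% and 0.0126% of all tested genes. At an unadjusted p under 0.05 there were 0, 1 (Dbf4, lower after C1Q+C5), 0 and 0 members, against 3.19%, 4.38%, 1.18% and 2.78%, and DESeq2 called 0 in each. The members' median log2 fold change was 0.21, 0.10, -0.17 and -0.38, where the median over all tested genes was 0.03, -0.06, -0.01 and 0.00. The summed level was 718 to 983 CPM in the controls, 597 to 1038 CPM with IL-1α+TNF-α, 404 to 1039.8 CPM with C1Q+C5, 564 to 1016 CPM with IL-1β+IL-6 and 620.2 to 914 CPM with TGF-β2, and the groups overlapped. Over the 20 libraries 16 members had a median of 0, 13 of them also over the 11 libraries that were not shallow, and 3 (Pcna, Rfc4 and Tyms) were detected in all 20.

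Whether the cell type difference varied with the treatment was tested by the interaction of cell type and treatment. edgeR called 0 of 49 members, against 0% of 13227 tested genes, 4 members (Mcm3, Rpa2, Rfc4 and Cdt1) had an unadjusted p under 0.05, against 6.11%, and DESeq2 called 0. The smallest adjusted p of a member was 0.700 (edgeR quasi-likelihood, Benjamini-Hochberg).

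Promoter sequences (RefSeq, GRCm38.p6, from 250 bases before to 50 bases after each start) were available for 40 of the 49 members, and not for Gmnn, Mcm4, Gins1, Gins2, Gins4, Prim2, Pole, Rfc2 and Ccne2. An E2F motif, spelled TTTCCCGC, TTTCGCGC, TTTGCCGC or TTTGGCGC and searched on both strands, was present in 16 of 40 members (40%) and in 704 of 27025 genes (2.60%). The 16 were Orc1, Cdc6, Cdt1, Mcm3, Mcm5, Mcm6, Mcm7, Gins3, Pola1, Pold1, Pold3, Pole2, Rfc3, Lig1, Uhrf1 and Dnmt1. Of the members with a promoter sequence, 13 of the 29 called lower in ES-motor neurons (44.8%) and 3 of the 11 not called (27.3%) held the motif. The letters CCAAT were present in 22 of 40 members (55%) and 41.1% of all genes, and TTTGAA or TTCGAA, the core letters of a cell cycle element, in 10 of 40 (25%) and 21.7%. A match is a description of the letters only.

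The promoters of Uhrf1 and Gins3, the members described in full that held a match, are shown 5′ to 3′ with the E2F motif in capitals: Uhrf1 at chr17:56304063-56304362, plus strand, with TTTCGCGC at bases 66 to 73, and Gins3 at chr8:95633309-95633608, plus strand, with GCGGGAAA, the reverse complement of a spelled motif, at bases 210 to 217. Uhrf1 was called lower in ES-motor neurons and Gins3 was not, and the Uhrf1 window is 1 of 2 listed for that gene.
Uhrf1: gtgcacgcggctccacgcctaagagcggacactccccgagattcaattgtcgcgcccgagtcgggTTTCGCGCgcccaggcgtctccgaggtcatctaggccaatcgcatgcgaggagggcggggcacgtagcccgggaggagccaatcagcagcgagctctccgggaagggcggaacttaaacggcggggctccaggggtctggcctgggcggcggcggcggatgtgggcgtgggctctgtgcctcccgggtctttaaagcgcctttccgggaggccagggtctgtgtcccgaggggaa
Gins3: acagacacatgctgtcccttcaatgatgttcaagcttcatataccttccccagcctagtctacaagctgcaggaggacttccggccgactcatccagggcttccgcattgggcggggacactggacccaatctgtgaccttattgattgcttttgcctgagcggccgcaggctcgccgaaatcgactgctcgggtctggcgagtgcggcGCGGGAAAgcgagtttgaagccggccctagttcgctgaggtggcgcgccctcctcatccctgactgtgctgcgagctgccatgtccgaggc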

How the data were processed

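Polyadenylated RNA of 40 libraries, 20 of each sorted cell type, was measured as counts per gene. The authors aligned the reads with STAR and deposited the counts, and also used DESeq2; the versions of both, the build, the annotation and the counting strand were not given in the sources used here. All 40 columns were matched to a library, and 0 were left over. Names, positions and exon lengths came from GENCODE M21, which named 55227 of 55487 genes. Counts were fitted over all genes with edgeR 4.0.16 (filterByExpr, TMM, robust quasi-likelihood) in R 4.3.3, with DESeq2 1.42.0 as an alternative; Python 3.11.15 with pandas 2.3.3 and matplotlib 3.10.9 made the summaries. Calls needed an adjusted p (Benjamini-Hochberg) not exceeding 0.05 and a log2 fold change beyond 1 in either direction; tests over several treatments used the adjusted p alone. The standard error is the absolute log2 fold change over the square root of the F statistic. The 95% counting intervals and the 3-count floor rest on pooled counts. Members described in full were, per role, the highest by mean CPM per kb in ES-astrocytes and the smallest p in the cell type comparison, the 3 smallest p of each stimulus comparison in ES-astrocytes and of the test over 5 treatments, and 8 members not called in the cell type comparison; other members were named after their values were seen. The members and lists were chosen with earlier results of these data known. The fits were tested on simulated data. Alternatives were RLE size factors, other filters on low counts, DESeq2, a replicate block, no shallow libraries, no minimum fold and leaving out each library.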

Additional observations from a re-analysis of the deposited data

Results flagged for a closer look

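In 55 sets of 4 values, 7 held a library that stood apart from the other 3. Each set was a quantity in the 4 libraries of 1 of the 10 groups. Chance gives about 1 in 20 for independent sets of normally distributed values. These values were not put on a log scale and the sets share libraries, so that rate does not apply exactly. Library A of the ES-astrocyte IL-1α+TNF-α group stood apart in 2 of the 7.

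The total count of ES-astrocyte IL-1α+TNF-α A was 14831839, above the other 3 of its group. The total count of ES-motor neuron control B was 19717324 and that of ES-motor neuron TGF-β2 B was 12606121, each above the rest of its group. The summed level of the replication genes was 4048 CPM in ES-astrocyte IL-1α+TNF-α A, where the others lay between 3165 and 3179.6 CPM. It was 3948 CPM in ES-astrocyte IL-1β+IL-6 B, where the others lay between 2608 and 2651 CPM. It was 404 CPM in ES-motor neuron C1Q+C5 A, the library of 6557 counts, below the other 3 of its group. Rfc4 had 81.1 CPM in ES-astrocyte C1Q+C5 D, where the others lay between 235 and 261 CPM.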

How the results depend on the processing

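The count of 35 members lower in ES-motor neurons over all treatments was 35 with DESeq2, RLE size factors, no filter on low counts, a filter of at least 20 counts in at least 4 libraries, and no minimum fold. It was 36 with the replicate block (34 of them among the 35), 30 without the shallow libraries, and 33 to 39 when each library was left out in turn, with 33 called in every such fit. In the controls the count of 12 was 28 with DESeq2, 2 with the replicate block, 4 without the shallow library, 20 in the fit of all 40 libraries, and 3 to 14 when each library was left out, and the cause was not tested. Of the members called there, Rfc4 and Rrm2 kept their call with the replicate block, without the shallow library and in all 8 fits that left out a library, and the other 10 each lost it in at least 2 of those 8 fits. Of 52 pairs of the same letter, 4 correlated above 0.1 after group means were removed, with a median of 0.01. Low correlations in libraries of about 200 cells cannot show that the letters do not pair the libraries. The replicate block used the letter alone, and no fit paired the cell types within a letter and treatment. The counts of members called were 0 with edgeR, with DESeq2 and under every other alternative run in the 4 stimulus comparisons of either cell type, in the test over 5 treatments and for the interaction, the replicate block included, and 0 in every fit that left out a library; the counts at an unadjusted p under 0.05 stand beside each comparison.

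For named members in the cell type comparison over all treatments and in the stimulus comparisons of ES-astrocytes, 226 of 232 alternative values for 32 results kept their direction and their side of the threshold, 1 lost its call (Gins1, plate index 2 alone, -0.97), 5 gained one and 0 reversed. The tally held DESeq2, RLE size factors, no filter on low counts, the replicate block and the plate splits. It also held the lowest and highest value when each library was left out, and no other alternative. Splits by plate index (27 and 26 members called) and the scalings of summed levels by RLE (14 of 16) and by total counts alone (11 of 16) were chosen after seeing the data. Fits without the shallow libraries were not run for IL-1α+TNF-α in ES-motor neurons, where all 4 stimulated libraries were shallow, and for the interaction, and no ES-astrocyte library was shallow. In the stimulus comparisons of ES-motor neurons 12 to 26 members passed the filter, the part of depth in this was not tested, and levels near 0 rest on few counts.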
